A study of Schizosaccharomyces pombe with 4 samples.

Results

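Bases that were repeatedly missing from cDNAs crosslinked to Mkt1 were collected from fission yeast CRAC libraries, and 109 such recurrent positions were found. CRAC (crosslinking and analysis of cDNAs) recovers RNA bound to a tagged protein after UV irradiation of living cells. A recurrent position was a base, on 1 strand, that was deleted in 2 or more cDNAs of each of the 2 Mkt1-HTP libraries, outside the mitochondrial genome, the rDNA ends of chromosome III and reads assigned to rRNA or tRNA genes. The 109 positions were chosen by these counts from 2677 positions deleted in any Mkt1-HTP cDNA, so their Mkt1-HTP deletion rates are a description and were not tested. Mkt1-HTP cells carried mkt1-HTP-KanR, a fusion of Mkt1 to a tag of histidines, a TEV protease site and protein A, and control cells had no tag. Cells of both groups were h+ and had leu1-32, ura4D18, ade6-210 and otr1R(Sph1):ade6+. They were grown at 32 °C in PMG medium lacking tryptophan and UV-irradiated for 42.5 s. Each group had 2 libraries, which the study calls biological replicates, and, since nothing else in the labels separates their cultures, a p-value over libraries measures the spread between these libraries, which may be technical.

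A protein crosslinked to RNA leaves a short peptide on the base after digestion, and reverse transcriptase can skip that base, so deletions in CRAC cDNAs are used as marks of contact. Deletions also arise from slippage in runs of 1 base and from amplification. Mkt1 is a conserved protein, with homologues in fungi and protozoa, which in budding yeast acts with Pbp1 in post-transcriptional control of mRNAs. Many of the mRNAs described here encode enzymes of the methionine cycle and of the serine and glycine pathway that feeds it with 1-carbon units. In that cycle methionine is converted to S-adenosylmethionine, which donates methyl groups, and the product homocysteine is methylated again.

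The sequences around the recurrent positions are printed first, for the most often deleted position of each of the 12 transcripts with the most deletions, because 8 of the 12 deleted bases lay in a run of 3 or more U. A further gcv2 site with one of the highest rates and a met26 site that was also deleted in a control are added. Each is RefSeq genome sequence (the authors' build ASM294v2 has the same chromosomes), in the sense of the mRNA, with T for U, and the capitals mark the run of identical bases that held the deleted base.
sam1, chrII:4162145-4162173, minus strand: ttatttgatgcTTTTcacgatagttatta
cho2, chrII:3948838-3948866, plus strand: tgagcttcaaccgcTTTagacaaataatg
gcv2, chrI:182748-182776, minus strand: ttagaattatccTTTgctggaacatgagg
gcv1, chrI:3013832-3013860, plus strand: aactttgtcacagcTTTTTgttctcttcg
gcv3, chrII:2849293-2849321, plus strand: agtcataacatcgcTTTcttctttttttg
ser3, chrIII:470289-470317, minus strand: tgtgagattataTTTaaacacgattattt
met17, chrII:467074-467102, plus strand: gaaagctagatataTTTatcatacccgac
SPBC8D2.18c, chrII:1391576-1391604, minus strand: cagcctcTTTTTTTTgcatgagtgatgtt
met26, chrI:1481067-1481095, plus strand: ttctcatcaactgaGGGtaacaagttgat
shm1, chrI:3069349-3069377, minus strand: aatttttggccAAAAtgccaattttcata
SPNCRNA.4900, chrII:847476-847504, plus strand: aaaaataaaaaaaaGtaaaaaaataaaaa
pdc101, chrI:101793-101821, minus strand: tgtttggtaagaatAtgttacatttagat
gcv2 further site, chrI:182921-182949, minus strand: ttacttcaaccTTTTcccagttaagttca
met26 further site, chrI:1480897-1480925, plus strand: tgaagctcgtgagcAAtacgcttaagtca
A pair of longer stretches, in which every base was a recurrent position, is shown next because neither contains a run of 3 or more U. Here the capitals mark the stretch of adjacent recurrent positions.
sam1 stretch, chrII:4162235-4162263, minus strand: atgactgcaTCTCGAAGCGGaaaatacac
stretch downstream of cho1, chrII:1059323-1059351, plus strand: tttatattcaTACTTATGTaaaaaataat
The base assigned within a run is a convention of the alignment. Of 1114 distinct single-base deletions in the Mkt1-HTP libraries, 0 could be moved to the left on the chromosome without changing the sequence of the read, whereas 710 could be moved to the right. Deletions in a run were thus listed at its leftmost genomic base, which is the first base of the run for plus-strand RNAs and the last for minus-strand RNAs.

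The cDNA counts here leave out the mitochondrial genome and reads assigned to rRNA or tRNA genes. They keep any other cDNAs at the rDNA ends of chromosome III, where only deleted positions were left out. The Mkt1-HTP files then listed 14446 and 12800 distinct cDNAs, and the control files 260 and 793. A deletion was present in 12.7% (95% Wilson interval 12.2 to 13.3), 23.6% (22.9 to 24.4), 4.23% (2.38 to 7.42) and 18.4% (15.9 to 21.3) of them, in the order Mkt1-HTP replicates 1 and 2, then control replicates 1 and 2. These intervals cover counting error only. Replicate 2 of each group thus had more deletions than replicate 1. With few exceptions (3, 6, 0 and 2 of the entries kept here), each entry of the files is a cDNA that differs from the others in its ends or its deletions, and the 24468 and 26899 entries of Mkt1-HTP stand for 544192 and 483073 mapped cDNAs per the file headers. A deletion rate below is therefore the share of distinct cDNAs covering a base that lacked it, not the share of molecules. Of the Mkt1-HTP cDNAs that lacked a recurrent position, 301 of 685 and 385 of 921 had the same ends as a cDNA lacking none.

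Recurrent positions were found in few mRNAs and mostly in their 3′ UTRs. Of the 109 positions, 91 lay in annotated 3′ UTRs, 2 in a coding sequence, 4 in a long non-coding RNA and 12 on no annotated transcript of that strand. They fell in 13 mRNAs, and 76 of them (69.7%) in the 5 mRNAs with the most cDNAs. sam1, which encodes S-adenosylmethionine synthetase, alone held 40 (36.7%). The mRNA of met26 held 13, that of shm1 13, those of SPBC8D2.18c and ser3 5 each, gcv2 4, gcv1 and cho2 3 each, gcv3 and pdc101 2 each, and met17, tdh1 and ade10 1 each. All 10 mRNAs with at least 100 cDNAs in each Mkt1-HTP library held a recurrent position, as did 13 of the 72 with at least 10 (18.1%). The mRNAs of thf1 (89 and 96 cDNAs), pgk1 (93 and 66) and met6 (70 and 89) held none.

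**Figure D1:**
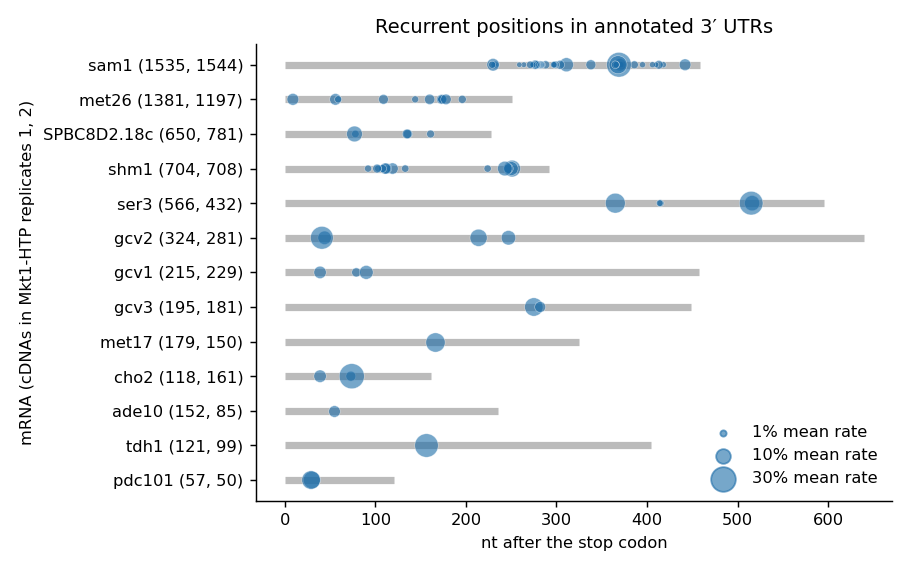
Recurrent positions in the 3′ UTRs of 13 mRNAs, by distance from the stop codon (x axis, nt); each row is an mRNA with its cDNAs in both Mkt1-HTP libraries, grey bars are annotated 3′ UTRs and the area of a point grows with the mean deletion rate. The sam1 row holds 40 positions, all between 229 and 442 nt after the stop codon.

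The positions were close to each other. They formed 66 stretches of adjacent bases, of which 47 were single bases, 13 were pairs and 6 had 3 or more bases, the longest 11. Among the 93 distances of at most 1000 nt between neighbours on a strand, 43 were 1 nt, 23 were 2 to 10 nt, 22 were 11 to 50 nt and 5 were larger. Counted as groups with no inner distance over 1000 nt, the 109 positions came from 16 loci. Neighbouring positions are thus not independent observations, and many were removed by the same deletion. Of the deletions over recurrent positions, 61.4% of 715 in replicate 1 and 54.7% of 958 in replicate 2 were 1 nt long, 32.2% and 33.8% were 2 nt long, and the longest were 11 and 15 nt.

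The highest count in the data was at a run of 4 uridines in the sam1 3′ UTR, 369 nt after the stop codon. Position 4162159 on the minus strand of chromosome II was deleted in 206 of 656 cDNAs (31.4%, 28.0 to 35.1) in Mkt1-HTP replicate 1 and in 199 of 694 (28.7%, 25.4 to 32.1) in replicate 2. In the controls it was deleted in 0 of 5 and 6 of 9 cDNAs. The Mkt1-HTP libraries were nearly equal, and the few control cDNAs lay on both sides of them. The neighbouring base of the run, 4162160, was deleted in 100 of 651 and 111 of 702 cDNAs in Mkt1-HTP and in 0 of 5 and 2 of 9 in the control. The cytidine that follows the run, 4162158, was deleted in 54 of 667 and 39 of 704 cDNAs and in 0 of 6 and 1 of 10 in the control. Over the whole stretch of 5 positions, a deletion was present in 220 of 640 spanning cDNAs (34.4%) and in 209 of 687 (30.4%). These deletions were carried by many different cDNAs: the cDNAs lacking 4162159 fell into 21 and 16 groups when cDNAs whose ends both differed by at most 3 nt were merged (end groups).

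The other recurrent positions of sam1 had lower rates. The longest stretch of the data, 11 bases from 274 to 284 nt after the stop codon, contains no U run. It was touched by deletions in 9 of 431 spanning cDNAs (2.09%) in replicate 1 and in 20 of 500 (4.0%) in replicate 2, and 2 and 5 cDNAs lacked all 11 bases. No spanning cDNA was found in control replicate 1, and 0 of 3 had a deletion in control replicate 2. A stretch of 5 positions at the end of a run of 9 uridines, 229 to 233 nt after the stop codon, was touched in 24 of 353 (6.80%) and 45 of 346 (13%) cDNAs. At 311 nt after the stop codon, in a run of 7 uridines, 10 of 124 (8.06%) and 20 of 200 (10%) cDNAs had a deletion. The 3 lowest rates of sam1 by mean were at 4162269 (0.461% ± 0.0315, SD, n = 2), 4162118 (0.523% ± 0.0337) and 4162264 (0.554% ± 0.183), which passed the threshold of 2 cDNAs with 366 or more covering cDNAs in each library.

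**Figure D2:**
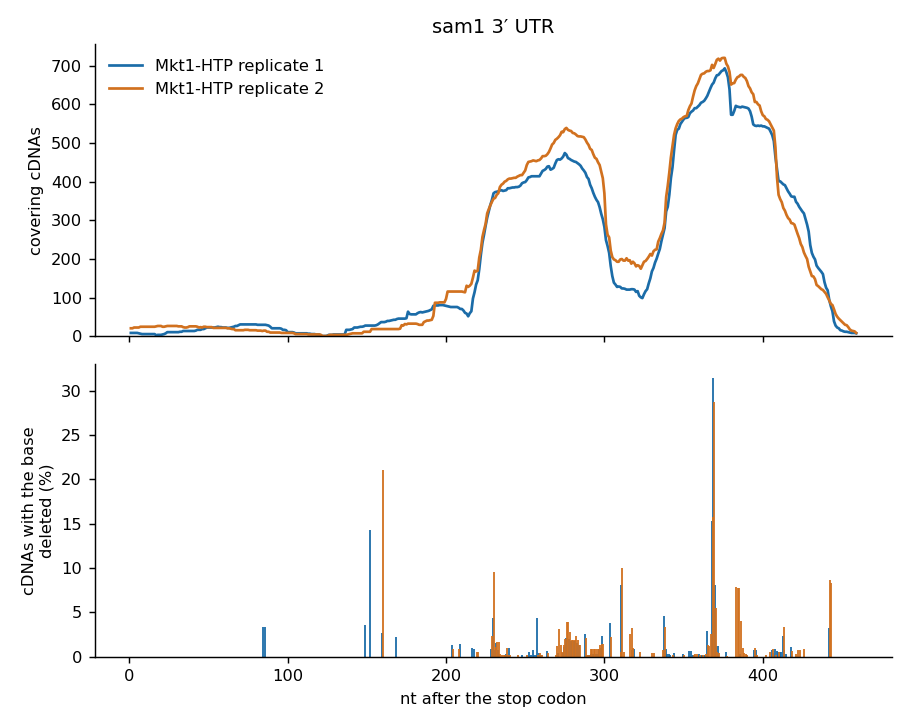
Covering cDNAs (upper panel) and share of them with the base deleted (lower panel, %, bases with at least 10 covering cDNAs) along the sam1 3′ UTR, by nt after the stop codon, in Mkt1-HTP replicates 1 (blue) and 2 (orange). The highest rate in both libraries is at 369 nt, with 31.4% and 28.7%.

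Some other mRNAs of methionine enzymes held recurrent positions too. The list of methionine and S-adenosylmethionine genes had 11 members, of which 6 had at least 10 cDNAs in each Mkt1-HTP library. Of these, 4 held a recurrent position (59 positions in all), namely sam1, met26, SPBC8D2.18c and met17, beside 13 of 72 over all such mRNAs. These 4 were among the 10 mRNAs with at least 100 cDNAs in each library, all of which held one. The listed met6 (70 and 89 cDNAs) and met9 (10 and 29) held 0. The mRNA of met26, which encodes the homocysteine methyltransferase that regenerates methionine, had its most often deleted position in a GGG run 160 nt after the stop codon. It was deleted in 26 of 644 (4.04%) and 23 of 481 (4.78%) cDNAs and in 0 of 6 and 0 of 3 control cDNAs. The Mkt1-HTP rates were close, and no control cDNA had the deletion. The only 2 recurrent positions in a coding sequence were also in met26. One of these, 1480236, lay 685 nt before the end of the coding sequence in a UUU run and was deleted in 11 of 32 and 3 of 14 cDNAs, with no control coverage. The other, 1480911, lay in an AA run 10 nt before its end. It was deleted in 4 of 39 (10.3%) and 14 of 42 (33.3%) cDNAs in Mkt1-HTP and in 0 of 1 and 2 of 2 in the control. At both coding positions, the replicate 1 cDNAs with the deletion formed 1 group of near-identical ends.

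The mRNA of SPBC8D2.18c, adenosylhomocysteinase, which splits S-adenosylhomocysteine, had a position in a run of 8 uridines 77 nt after the stop codon. This base was deleted in 13 of 138 (9.42%) and 26 of 189 (13.8%) cDNAs, in 9 and 18 end groups, and no control cDNA covered it. The single position of met17, homocysteine synthase, was in a UUU run 166 nt after the stop codon and was deleted in 9 of 83 (10.8%) and 15 of 60 (25.0%) cDNAs, in 1 and 2 end groups. It had no control coverage.

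In the list of serine, glycine and 1-carbon genes, 7 of 12 had at least 10 cDNAs in each Mkt1-HTP library. Of these, 6 held a recurrent position (28 positions), beside 13 of 72 over all such mRNAs. All of the 6 but ade10 (152 and 85 cDNAs) had at least 100 cDNAs in each library. ser3 encodes D-3-phosphoglycerate dehydrogenase, the first enzyme of serine synthesis. Its position 470303, in a UUU run 365 nt after the stop codon, was deleted in 17 of 191 (8.90%) and 61 of 210 (29%) cDNAs, in 6 and 10 end groups. In control replicate 1, 0 of 3 cDNAs had the deletion, and control replicate 2 did not cover it. Replicate 2 of Mkt1-HTP was the higher library here. A second UUU run of ser3, at 470153, was deleted in 19 of 75 (25.3%) and 5 of 17 (29.4%) cDNAs.

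shm1 encodes serine hydroxymethyltransferase, which moves the 1-carbon unit of serine to tetrahydrofolate. Its 13 positions fell in 2 clusters, 92 to 133 and 224 to 251 nt after the stop codon. In the distal cluster, the AAAA run at 3069363 was deleted in 17 of 168 (10.1%) and 33 of 200 (16.5%) cDNAs and the U run at 3069371 in 16 of 215 (7.44%) and 30 of 247 (12.1%). Both libraries thus had deletions at both runs, with 7 or more end groups in each. The proximal cluster was different. The AA of an AAAA run at 3069502 and 3069503 was deleted in 27 cDNAs of replicate 1 (9.31% and 9.51%) and in 2 of replicate 2 (0.870% and 0.901%), while the UUU run at 3069495 was deleted in 2 of 314 cDNAs (0.637%) in replicate 1 and in 27 of 262 (10.3%) in replicate 2. The higher library had 10 and 8 end groups at these sites and the lower library 1.

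Of the glycine cleavage complex, gcv1 (T subunit), gcv2 (P subunit) and gcv3 (H subunit) held 3, 4 and 2 positions. The gene dld1 of the same list had 0 cDNAs in each Mkt1-HTP library and held 0 positions. The UUUU run of gcv2 at 182935, 41 nt after the stop codon, was deleted in 13 of 51 (25.5%) and 8 of 32 (25.0%) cDNAs, in 2 and 3 end groups. A UUU run of the same 3′ UTR at 182762 was deleted in 2 of 61 (3.28%) and 20 of 81 (24.7%). Rates therefore matched between libraries at one U run and not at the other. The gcv3 UUU run at 2849307 was deleted in 10 of 53 (18.9%) and 5 of 37 (13.5%) cDNAs, and the gcv1 UUUUU run at 3013846 in 5 of 87 (5.75%) and 15 of 129 (11.6%). No control cDNA covered these 4 runs. ade10, a bifunctional enzyme of purine synthesis that uses a folate-bound 1-carbon unit, had 1 position in a run of 8 uridines, deleted in 3 of 65 and 2 of 28 cDNAs.

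cho2 encodes phosphatidylethanolamine N-methyltransferase, which uses S-adenosylmethionine to make phospholipids. It had the highest mean rate among the 99 recurrent positions with at least 20 covering cDNAs in each library. The UUU run at 3948852, 74 nt after the stop codon, was deleted in 23 of 68 (33.8%, 23.7 to 45.7) and 24 of 85 (28.2%, 19.8 to 38.6) cDNAs, in 6 and 8 end groups. No control cDNA covered it. The mean was 31.0% ± 3.95 (SD, n = 2), beside 30.04% ± 1.93 at the sam1 run and 25.2% ± 0.347 at the gcv2 run. cho1, the other phospholipid methyltransferase of the list, did not reach 10 cDNAs in each library, and no recurrent position lay within its annotated transcript. A stretch of 9 recurrent positions, printed above, lay 207 to 215 nt downstream of its annotated end on the same strand. It was touched by deletions in 5 of 36 (13.9%) and 6 of 43 (14%) spanning cDNAs and all 9 bases were missing in 1 cDNA of each library, with no control coverage. Its positions had 2 or 3 end groups in each library.

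Among the glycolysis and fermentation genes, 10 of 15 had at least 10 cDNAs in each Mkt1-HTP library and 2 held a recurrent position, beside 13 of 72 over all such mRNAs. The position of tdh1, glyceraldehyde-3-phosphate dehydrogenase, was in a run of 8 uridines and was deleted in 4 of 35 and 3 of 7 cDNAs. The pair of positions in pdc101, a putative pyruvate decarboxylase, had the deletion in 2 of 13 and 4 of 23 spanning cDNAs. None of the listed thiamine, phosphate, translation elongation, ribosomal protein, chaperone or core histone genes held one, among 2, 1, 4, 5, 1 and 1 genes with at least 10 cDNAs in each library. Among the positions outside mRNAs, 4 were in SPNCRNA.4900 at 847490 to 847509 of chromosome II, in A-rich sequence covered by 8 and 7 cDNAs. They had the highest rates of single positions, up to 50.0% and 71.4%, on this low coverage. The remaining 3 lay on chromosome III at 2067828 to 2067833, at least 1164 nt after the end of wtf21 and opposite SPNCRNA.7615.

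The deleted bases were most often uridines in runs. U made up 55 of 109 positions (50.5%), whereas 36.4% and 36.9% of all bases covered by the same libraries were U. A, C and G made up 18, 16 and 20 positions, which for A was below its share of the covered bases (16.5% against 29.3% and 27.5%). Outside sam1, 40 of 69 positions were U. Of the 47 positions without an adjacent recurrent position, 33 were U (70.2%). Weighted by deleted cDNAs, U took 61.0% and 66.1% of the deletions. A run of 3 or more U held 41 positions (37.6%), beside 14.4% and 14.5% of covered bases. Counted by runs with at least 10 covering cDNAs in each library, 38 of 176 U runs of 3 or more bases (21.6%) held a recurrent position, against 6 of 78 such A runs (7.69%) and 8 of 488 isolated uridines (1.64%). Isolated C and G were at 2.76% and 2.88%. These shares were not adjusted for run length. A longer run has more bases to lose, and its single-base deletions are all listed at 1 base, so it passes the threshold more easily. Crosslinking and slippage in runs were not told apart, and runs of 3 or more C or G were too few, 17 and 13, to compare. U also made up 49.4% of the 263 positions deleted in 2 or more cDNAs of replicate 1 and in none of replicate 2, and 51.7% of the 747 positions with the opposite pattern.

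**Figure D3:**
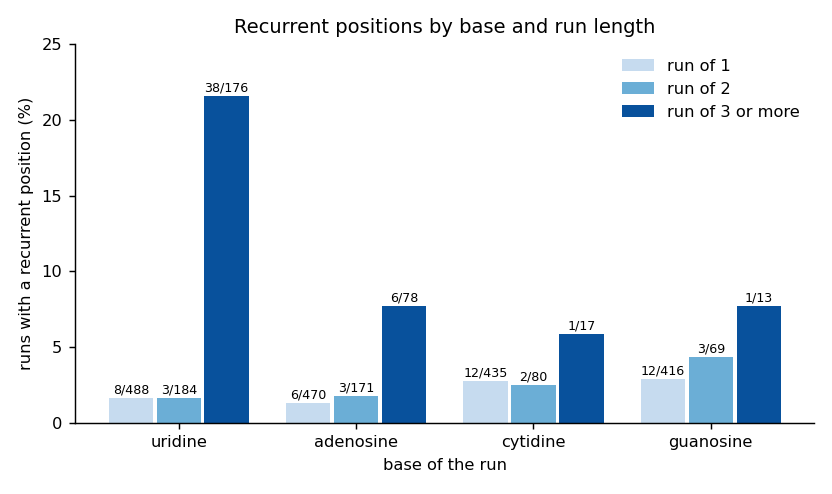
Share of runs that held a recurrent position (y axis, %), by base of the run and run length, among runs with at least 10 covering cDNAs in each Mkt1-HTP library; labels give runs with a position over all runs. Uridine runs of 3 or more are highest at 21.6% (38 of 176), and every other class is below 8%. Shares are not adjusted for run length.

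The place of the recurrent positions was set beside that of the covered bases. The 3′ UTR held 83.5% of them, beside 61.6% and 65.5% of covered bases, and the coding sequence 1.83% beside 25.9% and 25.5%. The shares were closer to those of the 4080 bases with at least 10 covering cDNAs in each library, of which 75.5% lay in 3′ UTRs and 8.63% in coding sequences. Outside sam1, 51 of 69 positions (73.9%) were in 3′ UTRs. Without the 5 mRNAs with the most cDNAs, 33 positions remained and the share in 3′ UTRs was 51.5%, since 16 of these positions lay outside mRNAs. Short motifs were searched on the sense strand in the 29 bases centred on each position. The same search was made around all bases with at least 10 covering cDNAs in each library. UUUUU was found around 25.7% of positions, 21.1% of all such bases and 23.9% of those in 3′ UTRs. In the same order, UGUA (the core of many Puf protein sites) was found around 12.8%, 7.55% and 7.31%. The shares were 3.67%, 2.43% and 3.22% for AAUAAA, 0.917%, 1.23% and 1.62% for UAUUUAU, and 0% for UGUANAUA. The recurrent positions here include those outside 3′ UTRs. Of the 14 positions with UGUA, 9 formed the stretch downstream of cho1. AAUAAA was found only around the 4 SPNCRNA.4900 positions. GCUUU, which was picked after the windows had been seen, was found around 13.8%, 6.03% and 7.18%, in the same order. When neighbouring positions were taken as 1 group (38 groups), GCUUU was in 5 groups of 4 genes and UGUA in 3 groups of 2 genes. UUUUU overlaps with the runs themselves.

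Deletion rates in the Mkt1-HTP libraries varied widely between recurrent positions. The rate ranged from 0.334% to 50.0% in replicate 1 and from 0.418% to 71.4% in replicate 2, with medians of 3.19% and 4.92%. In both libraries 51 positions were below 5% and 9 were above 20%. The rate was higher in replicate 2 at 72 positions and in replicate 1 at 36. It was within 2-fold at 70 positions and differed over 5-fold at 10. Across the 109 positions, which share genes and deletions, Spearman's rho between libraries was 0.752. Wilson intervals overlapped at 97 positions. The positions just inside the threshold, with 2 deleted cDNAs in the lower library, numbered 34, with median rates of 1.87% and 2.84%, and the 73 just outside, with 1 in the lower library and at least 2 in the other, had 0.862% and 1.67%.

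**Figure D4:**
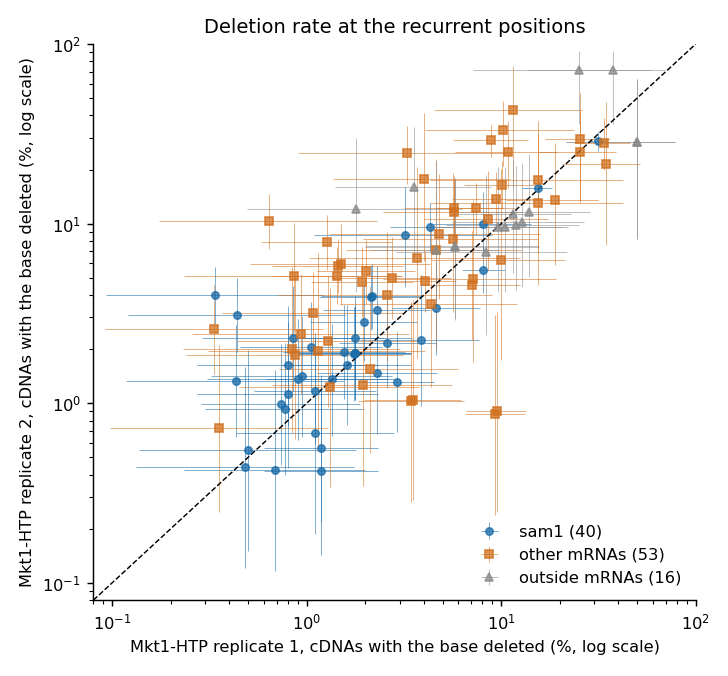
Deletion rate of the 109 recurrent positions in Mkt1-HTP replicate 1 (x axis) and replicate 2 (y axis), in % of covering cDNAs on log scales, with 95% Wilson intervals; the dashed line marks equal rates. Most points lie near the line (70 within 2-fold), and the pair far below it at 9.31% and 9.51% in replicate 1 is from shm1.

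The difference between the Mkt1-HTP libraries was tested at all positions deleted in either of them with at least 10 covering cDNAs in each. Fisher's exact test with Benjamini-Hochberg adjustment called 47 of 804 positions (5.85%) at an adjusted p under 0.05, and 11 of 104 recurrent positions were among them. Since the recurrent positions had high coverage and were chosen by deletions in these libraries, nothing is read from their larger share. By Fisher's exact test 9 of the 11 were higher in replicate 2, as were 39 of the 47 over all positions. By that exact test they included the shm1 position 3069495 (adjusted p = 6.7e-06), ser3 470303 (3.2e-05), met26 1481099 (0.00024), sam1 4162142 (0.00028) and gcv2 182762 (0.0088), adjusted in the same way. The other 2 were the shm1 positions 3069502 (0.00049) and 3069503 (0.00050). The met26 position was deleted in 6 of 471 (1.27%) and 28 of 354 (7.91%) cDNAs, and the sam1 position in 2 of 592 (0.338%) and 27 of 676 (3.99%). This test treats cDNAs as independent, although the replicate 2 cDNAs with the deletion formed only 6 end groups at the met26 position and 3 at gcv2 182762. It covers counting error only, so it compares the libraries and not cultures. With cDNAs of the same ends counted once, Fisher's exact test called 32 positions.

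Most deleted positions were not shared. The 109 were 27.0% of the 404 positions deleted in 2 or more cDNAs of replicate 1 and 12.2% of the 897 in replicate 2. Of the unshared positions of replicate 1, 166 were not covered in replicate 2, 24 were covered by 1 to 9 cDNAs, 73 were covered by 10 or more and not deleted, and 32 were deleted in 1. For replicate 2 these numbers were 445, 95, 207 and 41. Median coverage was 234 and 219 cDNAs at shared positions and 12 and 7 at unshared ones. When cDNAs with both ends within 3 nt were counted as 1, 79 of the 109 positions were supported by 2 or more end groups in each library and 23 by 5 or more, while 30 rested on 1 group in at least 1 library.

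The controls covered the recurrent positions thinly. Control replicate 1 covered 34 of the 109 positions and replicate 2 covered 66, with at most 6 and 10 cDNAs. Pooled over positions, deleted bases were 1066 of 28892 covered (3.69%, 3.48 to 3.91) and 1381 of 29239 (4.72%, 4.49 to 4.97) in Mkt1-HTP, 0 of 121 (0%, up to 3.08) in control replicate 1 and 11 of 213 (5.16%, 2.91 to 9.01) in control replicate 2. The control libraries thus lay on both sides of the Mkt1-HTP libraries. At the other covered bases of the same 13 mRNAs the rates were 0.195% and 0.550% in Mkt1-HTP, 0% of 1763 and 0.111% of 2702 in the control. Counted by cDNAs, 685 of 4892 (14%) and 921 of 4656 (19.8%) that covered a recurrent position lacked one in Mkt1-HTP. In the control these were 0 of 24 (0%, up to 13.8) and 8 of 28 (28.6%, 15.3 to 47.1). The control deletions were all in sam1 at 4162158 to 4162160 and in met26 at 1480911.

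**Figure D5:**
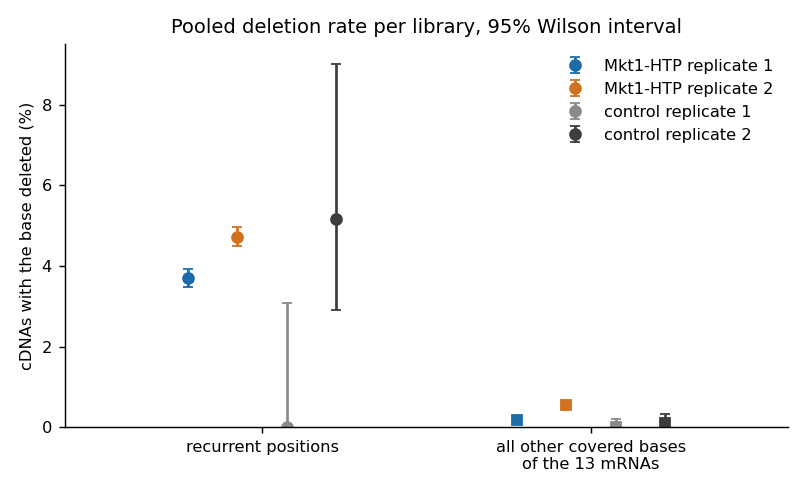
Pooled deletion rate (y axis, % of covering cDNAs) at the recurrent positions and at all other covered bases of the 13 mRNAs, for each library, with 95% Wilson intervals for counting error. At recurrent positions control replicate 1 is at 0% and control replicate 2 at 5.16%, on either side of the Mkt1-HTP libraries at 3.69% and 4.72%.

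Over recurrent positions, control cDNAs often had the ends of a Mkt1-HTP cDNA of the same number, with which the control shared a sequencing index in the labels. This held for 16 of 24 and 21 of 28 of these control cDNAs, beside 54 of 260 and 38 of 793 over all control cDNAs kept. The reason for the shared ends was not tested. Of the 8 control replicate 2 cDNAs with a deletion there, 7 had the ends of a Mkt1-HTP replicate 2 cDNA and 6 had the same deletions as well. Without such cDNAs, control replicate 1 had 0 of 41 and control replicate 2 had 1 of 42 covered bases deleted (2.38%). For a comparison in which no library chose its own positions, positions were taken from deletions in 2 or more cDNAs of the other Mkt1-HTP library alone. These positions still came from Mkt1-HTP deletions, included recurrent positions and differed between numbers 1 and 2. At the 125 and 130 such positions covered by the library and by the control of the same number, weighted by control coverage, the rate was 1.62% and 2.53% in Mkt1-HTP and 0% (0 of 349, up to 1.09) and 2.80% (11 of 393, 1.57 to 4.94) in the control. This gave means of 2.08% ± 0.646 and 1.4% ± 1.98 (SD, n = 2 each), a difference of 0.678 percentage points (two-sided exact permutation test, p = 1.0). With 2 libraries in each group this test cannot give a p below 0.33. Within number 1 the difference was 1.62 and within number 2 it was -0.264. Without control cDNAs that had the ends of a same-numbered Mkt1-HTP cDNA, the control rates fell to 0% (0 of 117) and 1.12% (1 of 89), both below the 1.43% and 1.85% of Mkt1-HTP at the 68 and 81 positions still covered. The difference was then 1.08 percentage points (two-sided exact permutation test, p = 0.33, the smallest possible). At the recurrent positions it was 2.65 without these cDNAs and 1.94 with them, not tested because the positions were chosen on Mkt1-HTP. Leaving out cDNAs by shared ends was done in the control only. It removed 7 of the 8 control replicate 2 cDNAs with a deletion at recurrent positions. Nothing is therefore read from the lower control rates or the larger differences after it. With 2 libraries in each group and this control depth, a difference between Mkt1-HTP and the control could not be shown.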

How the data were processed

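RNA crosslinked to Mkt1-HTP, or recovered from untagged cells, was sequenced as paired ends, with 2 libraries per group, grouped by sample titles. Per the file headers and the study's methods, the authors trimmed adapters (Flexbar), removed duplicates (pyCRAC) and tRNA reads (STAR 2.7.1a), aligned the rest with Novoalign 3.09.02 to the build ASM294v2 and ran pyReadCounters (Counters 1.4.4), keeping deletions only and joining paired reads, with any unsequenced gap, into blocks. The deposited files hold counts, 1 for each distinct cDNA, with its deleted positions.

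cDNAs were placed by strand on the RefSeq annotation; 99.7% of 17970 overlapped the gene that the files name. Deleted and covering cDNAs were counted per base and strand in Python 3.11.15 (scipy 1.17.1, statsmodels 0.14.6). Reads assigned to rRNA or tRNA on either strand were left out, which also leaves out antisense cDNAs there. Wilson intervals are at 95%. Fisher's exact test was checked on simulated counts. Genes and positions named were those with the most recurrent positions or deleted cDNAs, the highest and lowest rates, deletions in the control, or a place outside mRNAs. The positions, motifs and gene lists were chosen with earlier results of these data known. Alternatives were the threshold, merged ends or runs, fewer genes, and libraries left out.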

Additional observations from a re-analysis of the deposited data

How the results depend on the processing

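The count of 109 recurrent positions depended on its threshold. It was 216 with 1 or more deleted cDNAs in each library, 49 with 5 or more, 33 without the 5 mRNAs with the most cDNAs, 38 from cDNAs with only 1 deleted position, and between 404 and 897 when 1 Mkt1-HTP replicate was left out. The U share of 50.5% rose to 63.6% without those 5 mRNAs, and the 3′ UTR share of 83.5% became 51.5% without them and 92.1% from cDNAs with 1 deleted position. The Mkt1-HTP minus control rate at recurrent positions was 1.94 percentage points. It ranged from -0.874 (without control replicate 1) to 5.35 (without control replicate 2) when a library was left out. Without the 5 mRNAs it was 10.1, on almost no control coverage. Control replicate 1 then had 1 cDNA, at gcv2 182729. Control replicate 2 had 1 at each of 2067828, 2067829 and 2067833 on chromosome III. At positions chosen in the other library the difference of 0.678 was -0.00892 with at least 5 covering control cDNAs, and ranged from -0.578 (without control replicate 1) to 2.40 when a library was left out. With the replicate number as a replicate block it was 0.678 (exact sign-flip p = 1.0). The causes were not tested. The other 48 of 61 alternative values kept their direction and, where there was a test, their side of the threshold, and 41 of them lay within 1.5 times the main value. The 7 that did not were differences from the control. At recurrent positions these were 0.397 with at least 5 covering control cDNAs and the 5.35 above. At positions chosen in the other library they were 1.05 without the 5 mRNAs, 1.08 without control cDNAs that share their ends with Mkt1-HTP, 2.40 without control replicate 2, 1.14 without Mkt1-HTP replicate 1 and 0.221 without Mkt1-HTP replicate 2. Among the 61 were 2 choices made after seeing the data, counting near-identical ends once and leaving out the sam1 site with the most deleted cDNAs. Thin control coverage limits every comparison with the control.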

Other observations

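Positions deleted in nearly all cDNAs of a library were not among the recurrent ones. At least 80% of 10 or more covering cDNAs lacked the base at 12 positions in Mkt1-HTP replicate 1, 18 in replicate 2, 0 in control replicate 1 and 2 in control replicate 2. Of the Mkt1-HTP positions, 11 and 17 were not covered in the other Mkt1-HTP library, and 0 were deleted in it.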
